A study of Mus musculus with 8 samples.

Results

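The Ly6 genes examined here were Ly6c1, Ly6c2, Ly6a, Ly6e, Ly6i and Ly6d. They were picked by symbol because they surround the marker used to sort the cells, and all 6 were found among the 16486 gene entries of the expression data. Bulk RNA-Seq values were analysed for 8 libraries of flow-sorted mouse blood monocytes (MCs), 4 of Ly6Chigh and 4 of Ly6Clow MCs, gated as CD11b+ Ly6G- cells. CT mice were C57/BL6 and had 2 libraries of each subset. T1DM mice were C57/BL6 given streptozotocin (STZ), a toxin of the insulin-producing beta cells, 50 mg/kg daily over 5 days, begun at an age of 8 weeks. T2DM mice were db/db mice, homozygous for a mutation of the leptin receptor. Each diabetic model had 1 library of each subset. All mice were male and 20 to 22 weeks old, and each library was made from RNA pooled from 5 mice. The CT libraries were sequenced on one instrument type and the diabetic libraries on another, so diabetes and sequencer cannot be told apart.

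Ly6 proteins are small cell surface proteins of the Ly6/uPAR family, held in the membrane by a glycosylphosphatidylinositol (GPI) anchor. The Ly6C antigen, the product of the near-identical genes Ly6c1 and Ly6c2, is abundant on classical, inflammatory MCs and scarce on nonclassical, patrolling MCs, which is why it serves as the sort marker. Ly6a encodes stem cell antigen Sca, Ly6d marks the step at which lymphoid progenitors turn to the B lineage, Ly6e is an interferon-induced gene of many cell types, and Ly6i is a close relative of Ly6a. A difference of Ly6c1 and Ly6c2 between the subsets follows from the gate and is given as a check of the labels.

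The members lie within 350 kb of mouse chromosome 15 (assembly GRCm38.p6), in the order Ly6d (chr15:74762056-74763567, minus strand), Ly6e (chr15:74955025-74959904, plus strand), Ly6i (chr15:74979534-74983434, minus strand), Ly6a (chr15:74994877-74998031, minus strand), Ly6c1 (chr15:75044018-75048920, minus strand) and Ly6c2 (chr15:75108161-75112066, minus strand). All are annotated as protein-coding. The span holds 22 annotated genes, of which 9 had values, and 7 of its 13 protein-coding genes had values. The first 150 coding bases of Ly6c1 and Ly6c2 are shown because they tell how alike the genes are that encode the sort marker, with capitals for the bases that differ.
Ly6c1: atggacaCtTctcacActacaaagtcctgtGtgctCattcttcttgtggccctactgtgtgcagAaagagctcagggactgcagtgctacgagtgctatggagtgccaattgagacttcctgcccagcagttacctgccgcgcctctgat
Ly6c2: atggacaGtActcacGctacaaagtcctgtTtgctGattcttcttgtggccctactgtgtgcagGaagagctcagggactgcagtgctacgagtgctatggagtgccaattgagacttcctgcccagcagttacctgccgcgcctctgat
This stretch holds 6 of the 9 differences over the 393 coding bases of 1 GENCODE transcript per gene, which were 97.71% identical with a longest identical run of 188 bases. Ly6a and Ly6i were 86.32% identical over 402 bases, and Ly6d and Ly6e were between 46.68% and 56.28% identical to each other and to the other members.

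Sequence identity bears on how reads are shared out. Of the 31-base sequences in the reference transcript of Ly6c1, 48% also occur in Ly6c2, and 57.1% occur in at least 1 other gene. For Ly6c2 these shares were 49.2% in Ly6c1 and 53.8% in any other gene. The shares were lower in Ly6a (22.2%) and Ly6i (19.7%), 0.755% in Ly6e and 0% in Ly6d. The split of reads between Ly6c1 and Ly6c2 is therefore uncertain, while Ly6d and Ly6e hardly share sequence with any other gene. Ly6g, whose product was excluded by the gate, was not analysed here.

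Ly6c2 was high in all Ly6Chigh libraries. Its log2 values were 8.61 and 8.56 in the CT, 8.72 in the T1DM and 8.58 in the T2DM libraries of Ly6Chigh MCs, and 4.07 and 2.69 in the CT, 3.20 in the T1DM and 3.53 in the T2DM libraries of Ly6Clow MCs. The subsets did not overlap, and the Ly6Chigh libraries lay much closer to each other than the Ly6Clow libraries, where the CT replicates alone differed by 1.38. The difference between the subsets (log2FC, Ly6Chigh minus Ly6Clow) was 5.21 for CT, 5.53 for T1DM and 5.05 for T2DM mice. In bulk libraries, fewer cells of a type and less RNA per cell cannot be told apart. Over the 8 libraries with mouse group as covariate the log2FC was 5.25 ± 0.26 (SE; limma, adjusted p = 2.85e-06), which is position 6 from the highest among 16486 genes.

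Ly6c1 showed the same direction as Ly6c2. Its log2 values were 4.11 and 4.02 in the CT, 5.22 in the T1DM and 5.01 in the T2DM libraries of Ly6Chigh MCs. They were 1.71 and 1.43 in the CT, 0.52 in the T1DM and 0.69 in the T2DM libraries of Ly6Clow MCs. Thus both diabetic libraries lay above both CT libraries in the Ly6Chigh subset and below both in the Ly6Clow subset. The log2FC between the subsets was 2.49 for CT, 4.70 for T1DM and 4.32 for T2DM mice. Over all libraries it was 3.50 ± 0.40 (SE; limma, adjusted p = 0.000249).

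**Figure D1:**
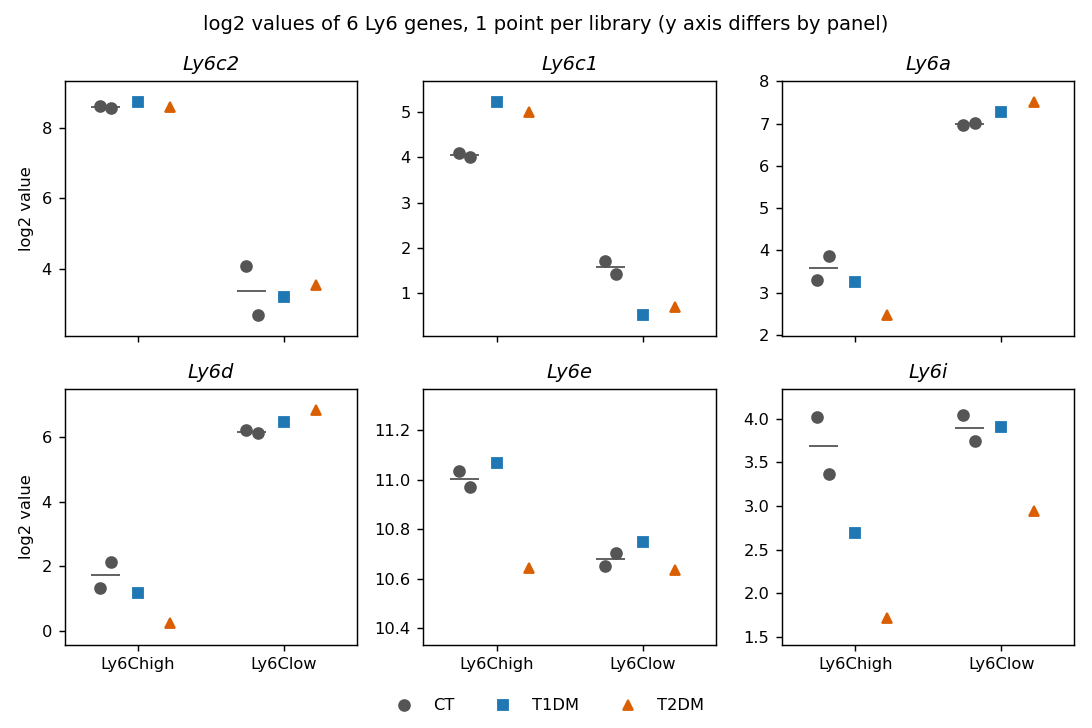
log2 value (y axis, scaled per panel) of each Ly6 gene in Ly6Chigh and Ly6Clow MCs (x axis), with 1 point per library, grey circles for CT, blue squares for T1DM and orange triangles for T2DM; the short bars are means of the 2 CT libraries. Ly6c2 and Ly6c1 lay higher in every Ly6Chigh library, Ly6a and Ly6d lay higher in every Ly6Clow library, and Ly6e and Ly6i overlapped between the subsets.

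Since Ly6c1 and Ly6c2 share so much sequence, their sum was also examined. On the log2 scale the sum was 8.67 and 8.62 in the CT, 8.84 in the T1DM and 8.70 in the T2DM libraries of Ly6Chigh MCs, and 4.33 and 3.19 in the CT, 3.41 in the T1DM and 3.72 in the T2DM libraries of Ly6Clow MCs. The sum differed between the subsets by 4.89 for CT, 5.44 for T1DM and 4.98 for T2DM mice. The pair thus behaved much like Ly6c2, which supplies most of it. The share of Ly6c1 in the linear sum was 4.22% and 4.10% in the CT, 8.11% in the T1DM and 7.77% in the T2DM libraries of Ly6Chigh MCs. In Ly6Clow MCs the share was 16.3% and 29.5% for CT, 13.5% for T1DM and 12.2% for T2DM. These shares compare levels of a pair of genes whose reference transcripts are 844 and 822 bases long, so a scaling by length would change them little. An adjustment of single genes between CT and diabetic libraries, if any was made, would change both the shares and the sum.

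Ly6a ran opposite to the sort marker genes. Its log2 values were 3.30 and 3.87 in the CT, 3.24 in the T1DM and 2.47 in the T2DM libraries of Ly6Chigh MCs, and 6.98 and 7.01 in the CT, 7.29 in the T1DM and 7.51 in the T2DM libraries of Ly6Clow MCs. The groups did not overlap, and the T2DM mice held both the lowest Ly6Chigh value and the highest Ly6Clow value. The log2FC was -3.41 for CT, -4.05 for T1DM and -5.04 for T2DM mice. Over all libraries it was -3.98 ± 0.27 (SE; limma, adjusted p = 1.35e-05).

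Ly6d differed most among the members that were lower in Ly6Chigh MCs. Its log2 values were 1.33 and 2.14 in the CT, 1.18 in the T1DM and 0.24 in the T2DM libraries of Ly6Chigh MCs. They were 6.21 and 6.13 in the CT, 6.46 in the T1DM and 6.82 in the T2DM libraries of Ly6Clow MCs. The lowest Ly6Clow value was far above the highest Ly6Chigh value. The log2FC was -4.43 for CT (21.6-fold), -5.28 for T1DM (38.8-fold) and -6.58 for T2DM mice (95.6-fold). The T1DM and T2DM folds each compare 1 library with 1. They rest on low Ly6Chigh values, where the CT replicates differed by 0.80. Over all libraries it was -5.18 ± 0.36 (SE; limma, adjusted p = 1.63e-05), position 10 from the lowest of all genes.

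Over all libraries Ly6e was the member least different between the subsets, and among the CT libraries Ly6i was. The log2 values of Ly6e were 11.04 and 10.97 in the CT, 11.07 in the T1DM and 10.64 in the T2DM libraries of Ly6Chigh MCs. In Ly6Clow MCs they were 10.65 and 10.70 in the CT, 10.75 in the T1DM and 10.63 in the T2DM libraries. The T2DM Ly6Chigh library lay among the Ly6Clow libraries, so the subsets overlapped. The log2FC over all libraries was 0.24 ± 0.08 (SE; limma, adjusted p = 0.0379), but -0.22 after quantile normalization, so the data give no direction for Ly6e. Quantile normalization moved the median log2FC of all genes from -0.08 to 0.04, and that of the 61 genes averaging 10 or more from 0.33 to -0.07.

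Ly6i overlapped between the subsets as well. Its log2 values were 4.02 and 3.36 in the CT, 2.69 in the T1DM and 1.72 in the T2DM libraries of Ly6Chigh MCs, and 4.04 and 3.74 in the CT, 3.91 in the T1DM and 2.95 in the T2DM libraries of Ly6Clow MCs. The T2DM library was the lowest of its subset on both sides. The log2FC was -0.20 for CT, -1.21 for T1DM and -1.23 for T2DM mice, and -0.71 ± 0.28 (SE; limma, adjusted p = 0.0815) over all libraries.

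Genes with an adjusted p below 0.01 and an absolute log2FC above 1 were called. In the comparison over all 8 libraries 4 of the 6 members were called, Ly6c1 and Ly6c2 higher and Ly6a and Ly6d lower in Ly6Chigh MCs, beside 12.1% of all genes. In the comparison of the CT libraries alone 2 members were called, beside 3.52% of all genes, and these were Ly6a (adjusted p = 0.00751) and Ly6d (adjusted p = 0.00852). Ly6c1 (adjusted p = 0.0105) and Ly6c2 (adjusted p = 0.0139) just missed the limit of that limma test, and Ly6e (0.33 ± 0.04, SE) and Ly6i (-0.20 ± 0.30, SE) were not called either. Without any 1 of the 4 CT libraries, or without the trend of the variance on expression, the limma test of the CT libraries called no member and no gene, and with a filter on low values or quantile normalization it called 4 members, whereas the comparison over all libraries called 4 members in each of these cases. In 4 of the members the libraries of the subsets did not overlap, as in 32.8% of all genes. The median log2FC of the 6 members was -0.23 over all libraries, against -0.08 over all genes.

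**Figure D2:**
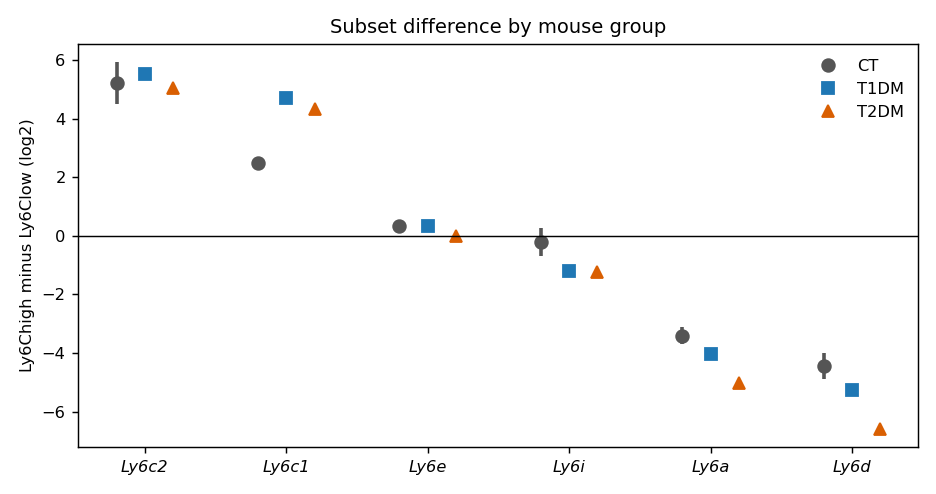
Difference Ly6Chigh minus Ly6Clow on the log2 scale (y axis) for each Ly6 gene (x axis), with grey circles for the CT means, vertical bars from the lowest to the highest difference between single CT libraries, blue squares for T1DM and orange triangles for T2DM. The T1DM and T2DM differences were farther from 0 than the CT difference for Ly6c1, Ly6a, Ly6d and Ly6i, and within the CT range for Ly6c2.

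Ly6c1 and Ly6c2 lie at one end, and Gm5960 and Ly6a2, the genes with values between and beyond them, had the same direction, while Ly6a on the other side of Ly6c1 had the opposite one. Ly6a2, a Ly6a-related gene beyond Ly6c2 (chr15:75131292-75135128), stood at 6.30 and 6.15 in the CT, 6.02 in the T1DM and 6.82 in the T2DM libraries of Ly6Chigh MCs, and 0.88 and 0.87 in the CT, 0.59 in the T1DM and 1.43 in the T2DM libraries of Ly6Clow MCs. Its log2FC over all libraries was 5.38 ± 0.17 (SE; limma, adjusted p = 4.68e-07). Gm5960, a pseudogene between Ly6c1 and Ly6c2, differed by 3.64 ± 0.40 (SE; limma, adjusted p = 0.000184) at low levels. Its Ly6Clow values were tied, at -1.92 in both CT libraries and -2.56 in both the T1DM and the T2DM library. The size and SE of its difference are therefore uncertain. Ly6a2 shares 5.86% of its 31-base sequences with Ly6c2 and 7.86% with Ly6a, and 17.8% of those of Gm5960 occur in Ly6a2.

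Upstream of the outermost annotated start of Ly6c2, 155 bases match a stretch before Ly6a2. They are shown because both genes were far higher in Ly6Chigh MCs. Against CT the pair did not run alike. In Ly6Chigh MCs Ly6c2 differed by 0.14 in T1DM and -0.00816 in T2DM, and Ly6a2 by -0.20 and 0.60. The sequences are from the RefSeq promoter set of GRCm38.p6, which held 2 of the 6 members, and the capital marks the base that differs. Ly6c2 is chr15:75112067-75112221 and Ly6a2 is chr15:75135219-75135373, both read on the minus strand.
Ly6c2: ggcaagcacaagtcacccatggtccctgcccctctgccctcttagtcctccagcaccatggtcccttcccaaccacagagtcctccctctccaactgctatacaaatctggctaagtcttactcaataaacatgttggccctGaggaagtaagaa
Ly6a2: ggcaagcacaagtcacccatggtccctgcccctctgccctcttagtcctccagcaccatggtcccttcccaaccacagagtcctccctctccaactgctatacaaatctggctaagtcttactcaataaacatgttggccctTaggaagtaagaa
Of these 155 bases, 154 are identical. The upstream bases of Ly6c1 were 73.88% identical to those of Ly6c2 over the aligned part. In Ly6c2 the capital opens the letters GAGGAAGT, a core that the myeloid factor PU.1 can bind, which occur on either strand in 2.44% of 27025 promoters over the 250 bases before the start. These letters are not particular to Ly6c2. They also occur before an inner start of Ly6c1 (-127 to -120) and before Ly6g (-31 to -24). In Ly6c2 they occur again next to an inner start (-8 to -1). Motifs named GAS, ISRE and CEBP were searched as well, and of these only CEBP was found, before Ly6g. None of the motifs was found before Ly6a2 or before the outer listed start of Ly6c1. That start lies inside the annotated gene, and 167 of the bases searched lie upstream of the outermost annotated start of Ly6c1. Such a match is a description of letters and not a site of binding.

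**Figure D3:**
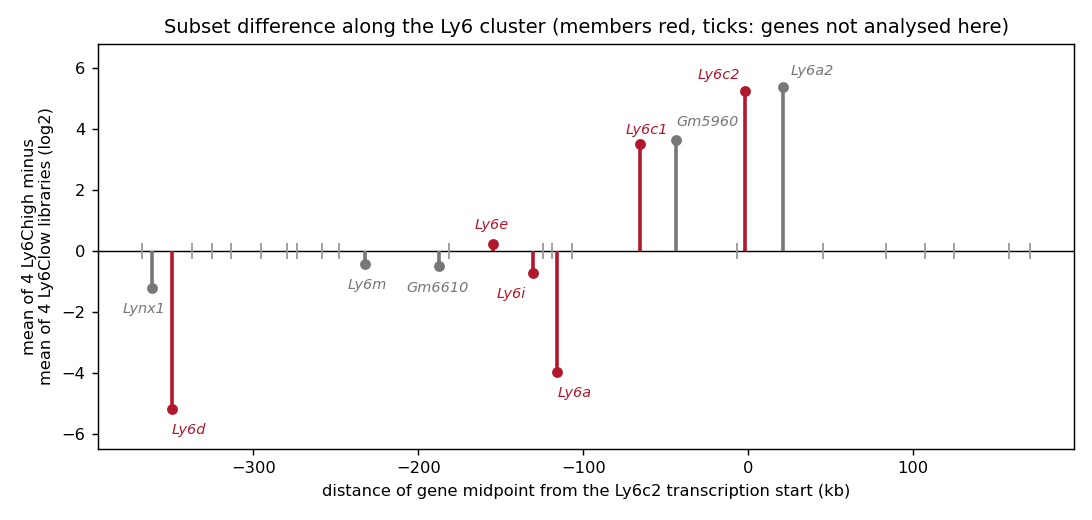
Mean of the 4 Ly6Chigh minus mean of the 4 Ly6Clow libraries on the log2 scale (y axis) for genes with values, placed by the distance of the gene's midpoint from the Ly6c2 start in kb (x axis); members are red, other genes grey, and ticks on the 0 line are annotated genes not analysed here. Ly6c1, Gm5960, Ly6c2 and Ly6a2 stand above 3, Ly6a and Ly6d stand below -3, and Ly6e, Ly6i, Ly6m, Gm6610 and Lynx1 lie between.

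A list of 34 other genes of the Ly6/uPAR family, which does not hold Ly6a2, had 11 genes with values. Their log2FC over all libraries ran from -1.48 (Lypd6b) to 0.91 (Plaur), and 1 of them was called. This was Lynx1, a GPI-anchored modulator of acetylcholine receptors, at -1.20 ± 0.25 (SE; limma, adjusted p = 0.0061). Plaur, the urokinase receptor, differed by 0.91 ± 0.13 (SE) and stayed under the fold limit. The median log2FC of the 11 was -0.43. Of the genes that build and attach the GPI anchor, 29 of 30 had values and 1 was called, Pigp at -2.03 ± 0.34 (SE; limma, adjusted p = 0.00208), with a median of 0.06.

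The markers of cell types differed between the subsets as well. Of 6 genes that mark MCs and myeloid cells in general, 3 were called higher in Ly6Chigh MCs, including Lyz2 (2.60 ± 0.07, SE), and their summed level on a log2 scale ran from 15.2 to 15.7 in the Ly6Chigh and from 12.96 to 13.2 in the Ly6Clow libraries. Classical MC markers were called higher in Ly6Chigh MCs for 9 of 10 genes, including Ccr2 (3.00 ± 0.08, SE), the receptor that draws classical MCs out of the marrow, and Vcan (6.40 ± 0.28, SE). Nonclassical MC markers were called lower for 7 of 10 genes, including Cd300e (-4.80 ± 0.32, SE), while Cx3cr1, the fractalkine receptor, ran the other way at 0.60 ± 0.17 (SE; limma, adjusted p = 0.0235) and was not called. All 16 B cell markers were called lower in Ly6Chigh MCs, with Cd79a, part of the B cell receptor, at -5.08 ± 0.28 (SE) and Ms4a1, which encodes CD20, at -5.23 ± 0.23 (SE). NK cell markers were called lower for 11 of 12 genes and T cell markers for 3 of 16.

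These lists also give the makeup beside Ly6d and Ly6a. The summed level of the 16 B cell markers, on a log2 scale, ran from 8.44 to 9.58 in the Ly6Chigh and from 12.6 to 12.9 in the Ly6Clow libraries. The NK cell list ran from 5.26 to 7.33 and from 7.70 to 10.2, and the T cell list from 5.23 to 5.81 and from 6.56 to 7.10. The log2 values hold no zero, so no marker can be called absent. Like Ly6d and Ly6a, the B cell list was lowest in T2DM Ly6Chigh and highest in T2DM Ly6Clow MCs. In T1DM Ly6Chigh MCs it went the other way, with a B cell level of 9.58 against 9.04 and 8.99 for CT. Ly6d (1.18 against 1.33 and 2.14) and Ly6a (3.24 against 3.30 and 3.87) lay below both CT libraries there. They lay below the lower CT library by less than the CT replicates differed. The lists of dendritic cell markers and of other Ly6/uPAR genes were likewise lowest in T2DM Ly6Chigh and highest in T2DM Ly6Clow MCs. The part of lymphoid cells in the values of Ly6d and Ly6a was not tested.

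**Figure D4:**
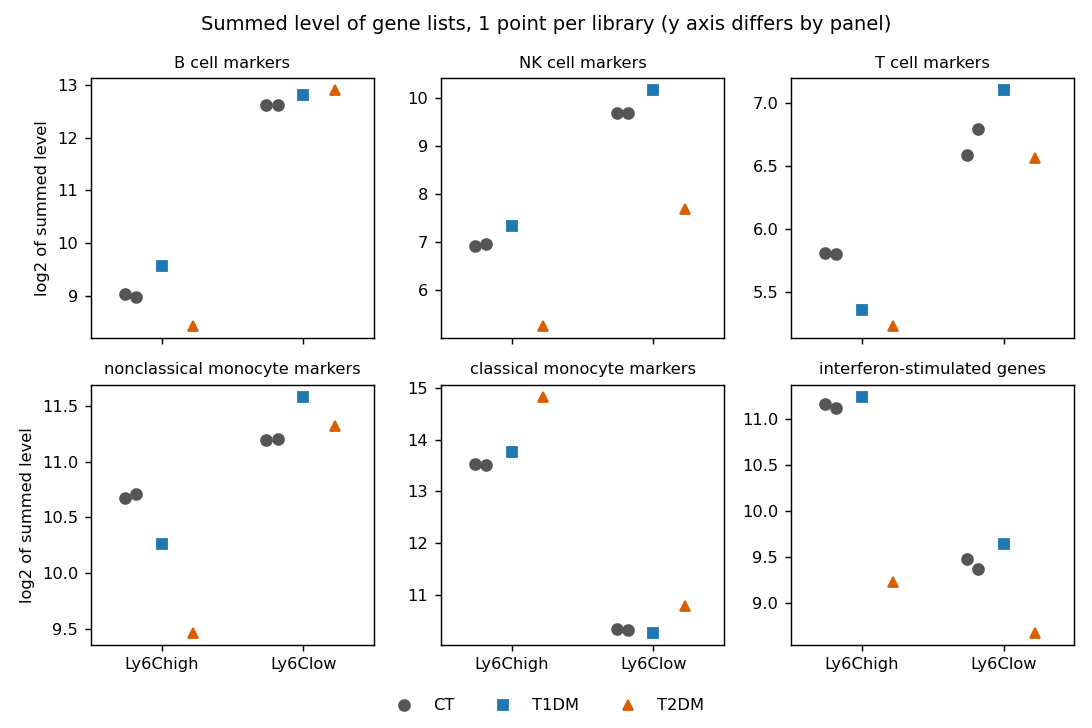
log2 of the summed linear levels (y axis, scaled per panel) of 6 gene lists in Ly6Chigh and Ly6Clow MCs (x axis), with 1 point per library, grey circles for CT, blue squares for T1DM and orange triangles for T2DM. B cell, NK cell, T cell and nonclassical MC markers lay higher in every Ly6Clow library, and classical MC markers in every Ly6Chigh library. Interferon-stimulated genes, NK cell markers and T cell markers were lowest in T2DM within each subset.

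The genes most like each member were sought by the root mean square difference of log2 values, each centred on its own mean over the 8 libraries. Ly6a was closest to Bhlhe41 (0.116), a transcriptional repressor, and Cd2 (0.157), a lymphocyte adhesion molecule, followed by Setbp1 (0.254). Ly6d was closest to Cacna1i (0.232), Diras2 (0.265) and the nonclassical MC marker Cd300e (0.318). Ly6e was matched by Ptpra (0.0353), Cep170 (0.0555) and Slc44a2 (0.0713), whose values vary as little as its own. The nearest genes of Ly6c2 were its neighbour Ly6a2 (0.447), Cd177 (0.475) and Plcb1 (0.526). Those of Ly6c1 were Anxa3 (0.297), the complement gene C3 (0.463) and Slfn1 (0.470), and those of Ly6i were Gm45140 (0.369), Helz2 (0.371) and Spn (0.374). Likeness here means a similar course over 8 libraries that mostly differ by subset.

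Diabetes was compared with CT within each subset, taking T1DM and T2DM together since each has 1 library. The spread in these tests thus holds the difference between the models. In Ly6Chigh MCs no member and 0% of all genes were called by limma. At an unadjusted p under 0.05 there were 739 genes of 16486, among them 4 members. Leaving out CT Ly6Chigh replicate 2 left 2 of these members, as Ly6a then stood at -0.45 and Ly6d at -0.62. The number was also 2 without either CT Ly6Clow library, and 1 without the T2DM libraries. Ly6c1 was 1.05 ± 0.29 higher (SE; limma, unadjusted p = 0.00751, adjusted p = 0.999). Ly6i was -1.48 ± 0.47, Ly6d -1.02 ± 0.39 and Ly6a -0.73 ± 0.30 (log2FC ± SE, diabetic minus CT), all with an adjusted p of 0.999 by limma. Both diabetic libraries were outside both CT libraries on one side for these 4 members, as for 30.8% of all genes. Ly6c2 (0.06 ± 0.39, SE) and Ly6e (-0.15 ± 0.15, SE) overlapped with CT.

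Markers of cell types shifted beside these members, with no gene of the lists called. In diabetic minus CT Ly6Chigh MCs the 10 nonclassical MC markers were all below 0 with a median of -0.96, and 7 of them had an unadjusted p under 0.05. Of 11 neutrophil markers with values 9 were above 0, with a median of 1.498. S100a9 (3.61 ± 1.34, SE) and S100a8 (3.55 ± 1.60, SE) were highest. Retnlg (-0.56 ± 1.51, SE) and Cxcr2 (-0.06 ± 0.48, SE) ran the other way. The summed level of the neutrophil markers on a log2 scale was 9.33 and 9.28 for CT, 9.22 for T1DM and 11.05 for T2DM. The median was 0.02 for both B cell markers and all genes. The summed level of the B cell markers was 9.04 and 8.99 for CT, 9.58 for T1DM and 8.44 for T2DM. It thus lay above CT in one model and below it in the other. The part of these cells in the values of Ly6i, Ly6d and Ly6a was not tested.

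In Ly6Clow MCs likewise no member and 0% of all genes were called by limma, and 489 genes had an unadjusted p under 0.05, among them 1 member. This was Ly6c1, at -0.97 ± 0.29 (SE; limma, unadjusted p = 0.0111, adjusted p = 1.00). Ly6a (0.40 ± 0.30, SE), Ly6d (0.47 ± 0.39, SE) and Ly6i (-0.46 ± 0.47, SE) did not pass even the unadjusted limit. Without CT Ly6Clow replicate 1 Ly6c2 passed it in place of Ly6c1, and without the other CT Ly6Clow library both did, with Ly6c2 on opposite sides of 0 (0.67 and -0.71). For 3 members the diabetic libraries lay outside both CT libraries on one side, as for 31.1% of all genes.

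The difference of the subset effect between diabetic and CT mice called no member and 0% of all genes by limma, with 1084 genes and 3 members at an unadjusted p under 0.05. Of the members, Ly6c1 alone was under that limit without CT Ly6Chigh replicate 2, without CT Ly6Clow replicate 1 or without the T2DM libraries. In Ly6c1, Ly6a and Ly6d the diabetic libraries lay outside both CT libraries on opposite sides in the subsets, as in 9.33% of all genes. For Ly6c1 the subset gap was wider in diabetic mice by 2.03 ± 0.41 (SE; limma, unadjusted p = 0.00138, adjusted p = 0.507), and the gap was wider in both models. For the sum of Ly6c1 and Ly6c2 it was 0.32 ± 0.47 (SE; limma, unadjusted p = 0.515). For this pair the difference was smaller than its SE. For Ly6d the difference was -1.50 ± 0.56 and for Ly6a -1.13 ± 0.42 (SE; limma, adjusted p = 0.716 for each). For Ly6i it was -1.02 ± 0.66 (SE), for Ly6c2 0.08 ± 0.55 (SE) and for Ly6e -0.16 ± 0.21 (SE).

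The deposited values also tie the subsets together. The mean over 4 CT libraries and that over 4 diabetic libraries were nearly equal for Ly6c1 (2.82 and 2.86) and Ly6c2 (5.98 and 6.01). They were 5.29 and 5.12 for Ly6a, 3.95 and 3.68 for Ly6d and 10.8 and 10.8 for Ly6e. Ly6i stood apart, with means of 3.79 and 2.82. Over all genes the median absolute difference of these means was 0.120, less than that within the Ly6Chigh (0.235) or Ly6Clow (0.204) subset, and 63.1% of genes had opposite signs in the subsets. Where the means are equal, a rise in one subset comes with a fall in the other, and a change shared by both subsets cannot show. The absence of calls between diabetic and CT mice within a subset is limited by this. For Ly6c1 the difference of the gaps can thus be read, but not its split between the subsets. The means of Ly6a and Ly6d differed by -0.16 and -0.27, less in size than their shifts in either subset. Their split between the subsets is uncertain too.

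T1DM and T2DM were each set beside the CT mean of the subset as single libraries, with no test. Ly6c1 was higher by 1.16 in T1DM and 0.95 in T2DM Ly6Chigh MCs and changed by -1.06 and -0.89 in Ly6Clow MCs, and the models lay within 0.21 of each other in either subset. Ly6i differed by -0.99 in T1DM and -1.97 in T2DM Ly6Chigh MCs and by 0.02 and -0.94 in Ly6Clow MCs. In Ly6Chigh MCs Ly6d differed by -0.55 in T1DM and -1.49 in T2DM, and the CT replicates, duplicates of pooled RNA, differed by 0.80. Ly6a differed by -0.34 and -1.12 there, with a gap of 0.57 between the CT replicates. Of the 24 differences of 6 genes in 4 contrasts, 5 exceeded 1 on the log2 scale.

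Ly6a and Ly6e can be induced by interferon, and the levels of interferon-stimulated genes are given beside them. The summed level of 20 such genes, on a log2 scale, was 11.2 and 11.1 in the CT, 11.2 in the T1DM and 9.24 in the T2DM libraries of Ly6Chigh MCs. In Ly6Clow MCs it was 9.49 and 9.37 for CT, 9.64 for T1DM and 8.68 for T2DM. The T2DM library was the lowest of each subset, as it was for Ly6i and Ly6e. For Ly6e in Ly6Clow MCs this was 10.63 against 10.65 in a CT library, and the CT replicates differed by 0.05. The T2DM library was also the lowest of each subset for the NK cell, T cell, platelet and erythroid lists. Between the subsets 15 of the 20 genes were called higher in Ly6Chigh MCs over all libraries, among them Irf7 (2.01 ± 0.18, SE) and Cxcl10 (3.55 ± 0.58, SE), whereas Ly6a was lower there. The part of interferon in the values of the Ly6 genes was not tested.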

How the data were processed

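RNA-Seq of 8 libraries of sorted MCs was analysed, 2 per CT subset and 1 per diabetic model and subset, grouped by their labels. The authors ran Kallisto 0.45, then tximport 1.12.3 under R 3.6.1, with mm10 named in their notes, and deposited log2 expression values for 16486 gene entries. Scaling between libraries, annotation, low-value filter and any adjustment between CT and diabetic libraries are not given in the sources used here. The values hold no counts, so the depth behind a value is unknown and no counting error can be given. Taken back to the linear scale, the libraries sum to 838696 to 1090019. The methods name gene counts and TPM, a per-length unit, but not which of them the deposited log2 values were made from, so levels were not compared between genes except Ly6c1 and Ly6c2.

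The values were tested without further normalization in limma 3.58.1 (lmFit, eBayes with trend) in R 4.3.3, with Benjamini-Hochberg adjustment over all genes. The limits were an adjusted p of 0.01 and an absolute log2FC of 1. The CT libraries are duplicates of pooled RNA, so p-values of the CT comparison measure the spread between these libraries, which may be technical. For tests against CT and of the subset effect, the diabetic libraries formed 1 group, so the spread also holds the difference between T1DM and T2DM. In the comparison over all libraries the spread also holds differences of the subset effect between mouse groups. Single-library differences carry no test. The tests between the subsets, in CT mice and over all libraries, were tried first on simulated data. The tests of diabetic against CT mice and of the difference of the subset effect were not. Shared 31-base sequences and coding identity came from GENCODE M21 transcripts (1 per gene), positions from RefSeq on GRCm38.p6, with Biopython 1.88, and list levels from Python 3.11.15. The authors' name Ly6a2 was matched to its GENCODE name I830127L07Rik through RefSeq.

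The members and gene lists were chosen with earlier results of these data known. Genes named besides the members are up to 4 per list, the 3 genes nearest to each member among genes averaging 3 or more on the log2 scale, genes sharing 31-base sequences with a member and its neighbours on the chromosome. Lists for plasma cells, neutrophils, plasmacytoid and other dendritic cells, platelets and erythroid cells were also run. Over all libraries 1 of 9, 2 of 11, 0 of 8, 1 of 8, 0 of 9 and 0 of 8 of their genes were called higher and 5, 0, 2, 2, 0 and 0 lower in Ly6Chigh MCs. Alternatives were a filter at a mean log2 value of 1 (12527 genes), adding 1 on the linear scale, quantile normalization, no variance trend, an adjusted p limit of 0.05, summed family members, a replicate block, leaving out libraries and, for single libraries, each CT library alone.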

Additional observations from a re-analysis of the deposited data

Results flagged for a closer look

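For 3 of the 6 Ly6 genes, both diabetic libraries lay on opposite sides of both CT libraries in the 2 subsets, a pattern met by 9.33% of all genes. Ly6c1 was higher by 1.05 in Ly6Chigh and changed by -0.97 in Ly6Clow MCs (log2FC, diabetic minus CT), with a difference of 2.03 ± 0.41 (SE; limma, adjusted p = 0.507). Ly6a differed by -0.73 and 0.40, with a difference of -1.13 ± 0.42 (SE; limma, adjusted p = 0.716). Ly6d differed by -1.02 and 0.47, with a difference of -1.50 ± 0.56 (SE; limma, adjusted p = 0.716). None of these passed the adjusted limit. The means over the CT and over the diabetic libraries were nearly equal for Ly6c1 (2.82 and 2.86), where a rise in one subset comes with a fall in the other. They differed more for Ly6a (5.29 and 5.12) and Ly6d (3.95 and 3.68), but by less than the shifts in either subset. The split between the subsets is therefore uncertain for Ly6a and Ly6d too. With at most 2 libraries per group, outlying libraries could not be sought.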

How the results depend on the processing

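Over all libraries, 4 members were called under each alternative except the sums of family members, where 3 of 5 entries (Ly6c1 and Ly6c2 summed) and 2 of 3 entries (Ly6c1, Ly6c2, Ly6a and Ly6i summed) were called. In CT mice the 2 calls became 4 with the filter on low values, 1 added on the linear scale, quantile normalization or an adjusted p limit of 0.05. They became 0 without the variance trend, with the replicate block and without any 1 CT library (range 0 to 0). The calls over all genes ranged from 0 to 1936 around 581 in CT mice, and from 1507 to 2792 around 2001 over all libraries. Over all genes, the deviations of the CT libraries numbered 1 from their group means correlated at 0.00892 between the subsets. With 2 libraries per group, those numbered 2 only mirror them. This value cannot tell whether libraries with like numbers belong together. The block changed no other call of a member. No member was called between diabetic and CT mice, or in the difference of the subset effect, under any alternative. All 16486 genes gave 3 calls in that difference at an adjusted p limit of 0.05. The count of single-library differences above 1 changed from 5 to 2 with 1 added on the linear scale.

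Some log2FC changed sign, and apart from the sums the cause was not tested. The sum of Ly6c1, Ly6c2, Ly6a and Ly6i, which takes its value mostly from the largest entry, was 1.45 between the subsets in CT and 1.34 over all libraries, against negative values of Ly6a and Ly6i. For diabetic minus CT it was 0.0725 in Ly6Chigh and 0.29 in Ly6Clow MCs, and -0.22 for the difference of the subset effect. With quantile normalization Ly6e was -0.14 between the subsets in CT, -0.22 over all libraries and -0.11 for diabetic minus CT in Ly6Clow MCs. Without the T1DM libraries, diabetic minus CT was -0.00816 for Ly6c2 in Ly6Chigh MCs, 0.15 for Ly6c2 and -0.0443 for Ly6e in Ly6Clow MCs, and the difference of the subset effect was -0.16 for Ly6c2. Without the T2DM libraries, it was 0.0631 for Ly6e in Ly6Chigh and 0.0169 for Ly6i in Ly6Clow MCs. Leaving out single CT libraries, Ly6i between the subsets in CT ran from -0.53 to 0.13. For diabetic minus CT in Ly6Clow MCs the range was -0.71 to 0.67 for Ly6c2 and -0.0116 to 0.0380 for Ly6e, and for the difference of the subset effect of Ly6c2 it was -0.61 to 0.77. Replicates are few and the reads behind each value unknown, which limits what the comparisons of diabetic with CT mice can show.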
